A study of Mus musculus with 50 samples.

Results

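Transcript levels of 10 glycolytic enzymes, Hk1, Hk2, Gpi1, Pfkl, Aldoa, Tpi1, Gapdh, Pgk1, Eno1 and Pkm, were followed gene by gene in 50 mouse mammary gland (MG) tumors. The genes were taken by name from a table of 37701 rows, and all 10 were found, each in a single row. The tumors came from female p53R270H/+WAPCre mice, in which the WAP promoter drives Cre in the mammary gland and Cre switches on 1 mutant copy of p53, so that all 5 groups carried the same tumor-causing allele. From 8 weeks of age the mice were injected under the skin every other day with vehicle, insulin, glargine, X10 or IGF1 until a tumor formed, with 10 tumors per group. Glargine and X10 are analogues of insulin with altered residues, whereas IGF1 (insulin-like growth factor 1) is a separate hormone. The 10 vehicle tumors carry the title Untreated in the sample labels, and single tumors are named here as titled there, such as Untreated_161. Mice were killed once the tumor had reached 1 cm3, with the last dose 24 h earlier, and the study had picked tumors with an epithelial-to-mesenchymal transition (EMT)-like appearance whose latency lay nearest to the median of their group. The groups are therefore selected tumors of 1 genetic model, not all tumors that formed. The study reported a shorter latency with X10 and IGF1, so age and length of treatment at harvest went with group. Their effects cannot be told apart from those of the compounds. The question put to the data was whether the enzymes that take glucose to pyruvate differed between tumors grown under chronic stimulation of the insulin and IGF1 receptors, with X10 and IGF1 as the compounds of high affinity for the IGF1 receptor.

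Glycolysis splits glucose into pyruvate in the cytosol and yields ATP without oxygen. Many tumors run it at a high rate even when oxygen is present and secrete the pyruvate as lactate, a habit known as the Warburg effect, which also feeds precursors into nucleotide, lipid and amino acid synthesis. Insulin signaling stimulates the pathway, and under low oxygen the hypoxia-inducible factors raise transcription of most of its enzymes. The genes are described below in the order of their reactions. Hk1 and Hk2 encode hexokinases, which phosphorylate glucose and trap it in the cell. Gpi1 turns glucose 6-phosphate into fructose 6-phosphate. Pfkl is the liver-type subunit of phosphofructokinase, the main control point of the pathway. Aldoa splits the 6-carbon sugar and Tpi1 interconverts the triose phosphates it releases. Gapdh oxidizes glyceraldehyde 3-phosphate, Pgk1 makes the first ATP of the pathway, Eno1 makes phosphoenolpyruvate, and Pkm makes pyruvate and the last ATP.

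Gene expression was measured by sequencing Poly-A RNA, and the deposited values are RPKM, that is reads divided by library size and by gene length. Library sizes, read back from the spacing of low RPKM values, had a median of 40.9 M reads (26.6 to 51.9 M), and their group medians ran from 35.4 M in X10 to 44.0 M in vehicle tumors. None of the 10 enzymes was correlated with library size at an adjusted p under 0.05. The EMT-like label was set beside marker genes, whose levels in whole tumors do not test it. Of 6 mesenchymal genes, Col1a1, Vim and Fn1 had median RPKM of 8435, 3812 and 598.2. Zeb1, Twist1 and Pdgfrb had lower medians of 62.1, 31.3 and 29.5. Of 7 epithelial genes, Krt18 had a median of 54.6, and Krt14, Cdh1, Epcam, Elf5 and Krt5 had 9.1, 6.56, 4.75, 1.58 and 0.813. Krt8, a luminal keratin, kept a median of 173.9, between 2.39 and 1616, so epithelial transcripts were not absent. The summed RPKM of 7 epithelial genes ran from 11.5 to 5100 in vehicle tumors and up to 4169 in X10 tumors, so the tumors were not alike in this respect. Skeletal muscle transcripts were over 10 times their median in 13 tumors spread over all 5 groups. The libraries hold whole tumors, and in such bulk samples fewer cells of a type and less RNA per cell cannot be told apart.

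The 10 enzymes were among the highly expressed genes, but on very different levels. Mean RPKM over the 50 tumors was highest for Eno1 at 1488 and lowest for Hk2 at 32.4. Between them stood Aldoa at 821.0, Tpi1 at 678.3, Gapdh at 655.8, Pkm at 521.5, Pfkl at 211.2, Gpi1 at 201.1, Hk1 at 188.2 and Pgk1 at 149.3. The enzymes of the first steps and Pgk1 were thus below the enzymes that handle the triose phosphates. Gapdh and Pgk1 carry a limit here, since copies elsewhere in the genome hold a mean of 168.3 and 42.18 in the RPKM units of each gene. With these added, Gapdh would stand above Tpi1 and Pgk1 above Hk1, which have no such copies in the table.

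**Figure D1:**
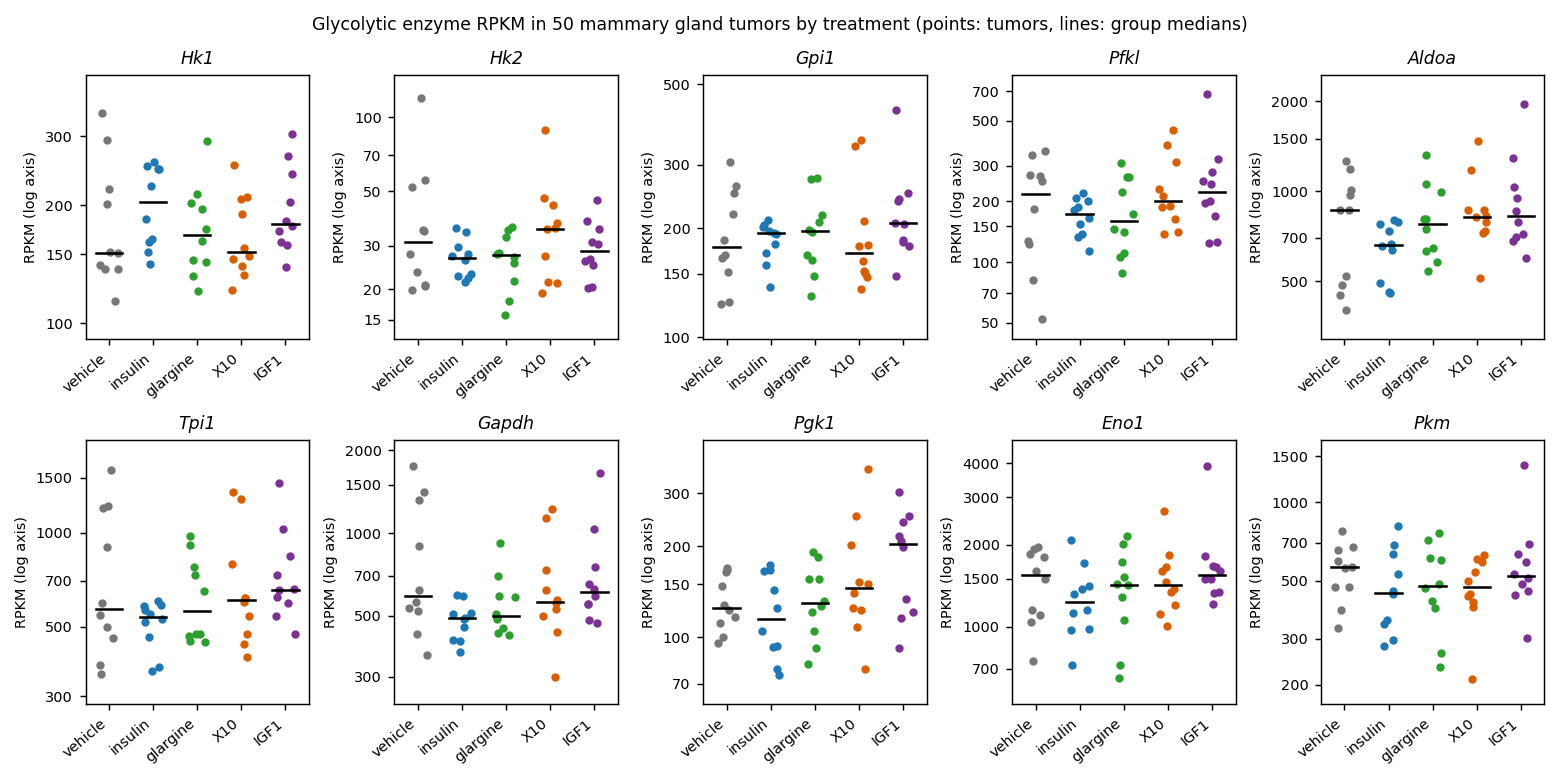
RPKM of the 10 enzymes on a log axis, with 1 point per tumor, 10 tumors per group, and a line at each group's median. In every gene the 5 groups overlap, and the IGF1 tumor IGF1_160 stands at the top of the IGF1 group for every enzyme but Hk2.

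For most steps a single isozyme supplied nearly all transcripts. Aldoa made up a median of 97.7% of aldolase RPKM, Pkm 99.9% of pyruvate kinase over the liver form Pklr, and Gapdh and Pgk1 practically all of theirs over the testis forms Gapdhs and Pgk2. Hexokinase was mostly Hk1, with a median share of 84.1% (63.7 to 94.0%). Hk2, the insulin-responsive form that is often raised in tumors, had a median of 12.9% (5.06 to 34.7%), and Hk3, a form of white blood cells, had 1.99%. Phosphofructokinase was more mixed. Pfkl held a median of 66.6% (42.6 to 81.4%), the platelet form Pfkp 21.6%, and the muscle form Pfkm 8.67%, with a highest value of 32.9%. Eno1 held 84.6% of enolase RPKM, Eno1b 9.83%, the muscle form Eno3 2.92% and the neuronal form Eno2 1.55%. The mutase step and lactate formation, which the 10 genes do not cover, were led by Pgam1, with a median RPKM of 100.7, and by Ldha, the lactate-forming dehydrogenase, with 689.1. Pgam1 held a median of 99.4% of mutase RPKM, but 45.5% at the lowest, and the muscle form Pgam2 reached 54.5%.

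Levels varied from tumor to tumor by more than the median gene of this abundance. The SD of log2(RPKM + 0.5) over the 50 tumors was between 0.39 and 0.67 for the 10 enzymes, with a median of 0.51. The median was 0.42 over the 16733 tested genes, which had a mean RPKM of at least 0.5, and 0.36 over the 4123 genes at least as abundant as Hk2. All 10 enzymes exceeded the latter value. Pfkl had the widest range, from 52.3 RPKM in the vehicle tumor Untreated_197 to 677.1 in the IGF1 tumor IGF1_160, a 13.0-fold span. Hk2 spanned 7.61-fold, Pkm 6.58-fold, Eno1 5.98-fold and Gapdh 5.84-fold, and the narrowest ranges were those of Hk1 at 3.01-fold and Gpi1 at 3.44-fold. Treatment group accounted for little of this variance. Its share was between 5.01% for Gpi1 and 17.1% for Pgk1, with a median of 9.74% over the 10 enzymes and 9.29% over all tested genes, where 5 groups of 10 give 8.16% by construction.

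The 10 genes lie on 5 autosomes and the X chromosome (GRCm38, GENCODE M21). Hk1 spans chr10:62268855-62379908 and Pfkl chr10:77986947-78010083, both on the minus strand. Hk2 lies at chr6:82725025-82774454, Tpi1 at chr6:124810586-124814296 and Gapdh at chr6:125161715-125166467, all on the minus strand, with only 0.347 Mb between Tpi1 and Gapdh. Gpi1 lies at chr7:34201330-34230336 and Aldoa at chr7:126795234-126800751, both on the minus strand. On the plus strand are Pgk1 at chrX:106187100-106203699, Eno1 at chr4:150236721-150248879 and Pkm at chr9:59656368-59679375.

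The hexokinase genes are taken first. Hk1 was between 114.3 and 344.2 RPKM in vehicle tumors with a median of 151.3, 141.4 to 257.2 in insulin tumors with 203.9, 120.9 to 292.1 in glargine tumors with 167.8, 121.9 to 253.1 in X10 tumors with 151.6, and 139.4 to 304.2 in IGF1 tumors with 179.3. Both the lowest and the highest Hk1 value of the series came from vehicle tumors. Hk2 ran from 19.9 to 119.7 RPKM in vehicle tumors with a median of 31.1, from 21.4 to 35.3 in insulin tumors with 26.7, from 15.7 to 35.7 in glargine tumors with 27.4, from 19.2 to 88.5 in X10 tumors with 35.2, and from 20.1 to 46.3 in IGF1 tumors with 28.5. The high Hk2 values stood in single tumors, Untreated_161 and X10_100, and the groups overlapped. In limma, the log2 difference of Hk2 from vehicle was -0.37 in insulin, -0.41 in glargine, -0.02 in X10 and -0.25 in IGF1 tumors (SE 0.24 each), none of which passed. With 1 tumor left out, named in brackets, they ran from -0.45 (Untreated_186) to -0.17 (Untreated_161) in insulin, -0.49 (Untreated_186) to -0.21 (Untreated_161) in glargine, -0.17 (X10_100) to 0.18 (Untreated_161) in X10 and -0.33 (Untreated_186) to -0.05 (Untreated_161) in IGF1 tumors. Those of Hk1 were 0.16, -0.04, -0.10 and 0.13 (SE 0.17 each). With 1 tumor left out, the Hk1 differences ran from 0.09 (Untreated_189) to 0.26 (Untreated_174) in insulin, -0.13 (glargine_63) to 0.06 (Untreated_174) in glargine, -0.17 (Untreated_189) to 0.01 (Untreated_174) in X10 and 0.06 (IGF1_160) to 0.24 (Untreated_174) in IGF1 tumors.

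Since both hexokinases are read in the same library, their ratio does not depend on how libraries were scaled. The ratio of Hk2 to Hk1 RPKM had a median of 0.173 in vehicle tumors (0.0947 to 0.545), 0.137 in insulin (0.0912 to 0.191), 0.159 in glargine (0.0538 to 0.243), 0.24 in X10 (0.103 to 0.35) and 0.133 in IGF1 tumors (0.11 to 0.271). The groups overlapped, and X10 had the highest median. On the log2 scale the ratio differed from vehicle by -0.52 for insulin (two-sided permutation test, p = 0.0638, adjusted over 5 comparisons p = 0.319), by -0.36 for glargine (adjusted p = 0.441), by 0.08 for X10 (adjusted p = 0.805) and by -0.38 for IGF1 (adjusted p = 0.441). Between X10 and IGF1 tumors together and the other 30 tumors the difference was 0.15 (adjusted p = 0.499).

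Gpi1 and Pfkl act next. Gpi1 was at 123.9 to 305.2 RPKM in vehicle tumors with a median of 177.4, at 137.4 to 211.2 in insulin tumors, whose middle 2 were at 193.5 and 194.5, at 129.7 to 275.4 in glargine tumors with a median of 196.4, at 135.9 to 351.8 in X10 tumors with 170.7 and at 147.5 to 426.1 in IGF1 tumors with 206.3. The medians of insulin, glargine and IGF1 tumors were thus above that of vehicle tumors. Of the IGF1 tumors, 9 of 10 were above the vehicle median for Gpi1, against 7 insulin, 6 glargine and 5 X10 tumors. Pfkl was at 52.3 to 355.4 RPKM in vehicle tumors with a median of 217.9, at 113.6 to 219.2 in insulin tumors with 173.8, at 88.5 to 309.8 in glargine tumors with 159.5, at 137.7 to 449.0 in X10 tumors with 201.3 and at 124.2 to 677.1 in IGF1 tumors with 221.6. The lowest Pfkl value of the series came from a vehicle tumor and the highest from an IGF1 tumor. Log2 differences of Pfkl from vehicle were -0.07 in insulin, -0.06 in glargine, 0.34 in X10 and 0.39 in IGF1 tumors (SE 0.29 each), and those of Gpi1 were -0.03, 0.04, 0.02 and 0.21 (SE 0.17 each). Those of Gpi1 ran, with 1 tumor left out, from -0.10 (Untreated_194) to 0.05 (Untreated_161) in insulin, -0.03 (Untreated_194) to 0.12 (Untreated_161) in glargine, -0.08 (X10_100) to 0.09 (Untreated_161) in X10 and 0.10 (IGF1_160) to 0.29 (Untreated_161) in IGF1 tumors. Those of Pfkl ran in the same way from -0.26 (Untreated_197) to 0.04 (Untreated_161) in insulin, -0.25 (Untreated_197) to 0.05 (Untreated_161) in glargine, 0.15 (Untreated_197) to 0.46 (Untreated_161) in X10 and 0.19 (Untreated_197) to 0.50 (Untreated_161) in IGF1 tumors. The medians of Pfkl in X10 and IGF1 tumors were 201.3 and 221.6 beside 217.9 in vehicle tumors.

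Aldoa and Tpi1 handle the split of the sugar. Aldoa was at 402.7 to 1262 RPKM in vehicle tumors with a median of 866.7, at 458.0 to 802.4 in insulin tumors with 661.8, at 542.4 to 1325 in glargine tumors with 780.0, at 513.3 to 1472 in X10 tumors with 823.1 and at 600.1 to 1966 in IGF1 tumors with 827.0. None of the 10 insulin tumors reached the vehicle median of Aldoa. Tpi1 was at 353.9 to 1584 RPKM in vehicle tumors with a median of 568.3, at 360.2 to 606.3 in insulin tumors with 538.1, at 446.1 to 973.7 in glargine tumors with 561.5, at 399.2 to 1349 in X10 tumors with 609.4 and at 473.1 to 1442 in IGF1 tumors with 657.3. For Tpi1, 8 of 10 IGF1 tumors were above the vehicle median. The log2 differences of Aldoa from vehicle were -0.23, 0.08, 0.19 and 0.28 for insulin, glargine, X10 and IGF1 (SE 0.2 each), and those of Tpi1 were -0.42, -0.16, -0.05 and 0.09 (SE 0.24 each). Leaving out single tumors, those of Aldoa ran from -0.32 (Untreated_182) to -0.14 (Untreated_161) in insulin, -0.02 (Untreated_182) to 0.16 (Untreated_161) in glargine, 0.09 (Untreated_182) to 0.28 (Untreated_161) in X10 and 0.15 (IGF1_160) to 0.36 (Untreated_161) in IGF1 tumors. Those of Tpi1 then ran from -0.53 (Untreated_194) to -0.29 (Untreated_161) in insulin, -0.26 (Untreated_194) to -0.02 (Untreated_161) in glargine, -0.17 (X10_100) to 0.08 (Untreated_161) in X10 and -0.03 (IGF1_160) to 0.22 (Untreated_161) in IGF1 tumors.

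Gapdh, often used as a constant reference gene, varied more than most. It was at 359.6 to 1747 RPKM in vehicle tumors with a median of 591.8, at 368.3 to 595.7 in insulin tumors with 489.4, at 426.9 to 922.0 in glargine tumors with 497.6, at 298.8 to 1227 in X10 tumors with 563.6 and at 472.6 to 1653 in IGF1 tumors with 608.1. A single insulin tumor was above the vehicle median, and the insulin range lay within the vehicle range. The log2 differences from vehicle were -0.62 for insulin (SE 0.24, 95% CI -1.09 to -0.14), -0.43 for glargine, -0.26 for X10 and -0.10 with IGF1. The insulin difference had p = 0.0123 and an adjusted p of 0.346 in limma, the smallest of the 10 enzymes in the insulin comparison. Leaving out single tumors, the Gapdh differences ran from -0.73 (Untreated_189) to -0.48 (Untreated_161) in insulin, -0.54 (Untreated_189) to -0.29 (Untreated_161) in glargine, -0.38 (Untreated_189) to -0.12 (Untreated_161) in X10 and -0.24 (IGF1_160) to 0.04 (Untreated_161) in IGF1 tumors.

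Pgk1 had the largest share of its variance between groups. It was at 95.9 to 170.0 RPKM in vehicle tumors with a median of 125.3, at 75.1 to 173.6 in insulin tumors with 114.9, at 81.5 to 191.3 in glargine tumors with 129.4, at 78.3 to 361.2 in X10 tumors with 145.3 and at 92.1 to 303.7 in IGF1 tumors with 204.2. Of the IGF1 tumors 7 and of the X10 tumors 6 were above the vehicle median, and the lowest X10 and IGF1 tumors were below the lowest vehicle tumor. The log2 difference from vehicle was 0.44 for IGF1 (SE 0.21, 95% CI 0.01 to 0.87, p = 0.0455), with an adjusted p of 0.555 in limma. For insulin, glargine and X10 it was -0.15, 0.00 and 0.25 (SE 0.21 each). Leaving out single tumors, the Pgk1 differences ran from -0.22 (insulin_26) to -0.08 (insulin_15) in insulin, -0.06 (glargine_47) to 0.08 (glargine_69) in glargine, 0.11 (X10_100) to 0.36 (X10_105) in X10 and 0.35 (IGF1_160) to 0.54 (IGF1_158) in IGF1 tumors.

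Eno1 and Pkm close the pathway. Eno1 was at 746.3 to 1963 RPKM in vehicle tumors with a median of 1551, at 722.0 to 2078 in insulin tumors with 1233, at 651.0 to 2159 in glargine tumors with 1427, at 1010 to 2658 in X10 tumors with 1422 and at 1217 to 3896 in IGF1 tumors with 1555. The lowest X10 and IGF1 tumors stood above the lowest tumors of the other groups. Pkm was at 328.5 to 772.9 RPKM in vehicle tumors with a median of 562.7, at 281.7 to 813.6 in insulin tumors with 450.8, at 233.7 to 765.1 in glargine tumors with 477.3, at 210.8 to 628.3 in X10 tumors with 473.6 and at 301.0 to 1388 in IGF1 tumors with 521.9. Vehicle tumors had the highest Pkm median. The log2 differences from vehicle for insulin, glargine, X10 and IGF1 were -0.19, -0.10, 0.07 and 0.24 for Eno1 (SE 0.21 each) and -0.22, -0.20, -0.22 and 0.06 for Pkm (SE 0.22 each). Leaving out single tumors, those of Eno1 ran from -0.29 (Untreated_197) to -0.10 (insulin_15) in insulin, -0.20 (Untreated_197) to 0.01 (glargine_69) in glargine, -0.04 (Untreated_197) to 0.13 (X10_105) in X10 and 0.10 (IGF1_160) to 0.29 (Untreated_174) in IGF1 tumors. Those of Pkm ran likewise from -0.32 (insulin_14) to -0.15 (insulin_15) in insulin, -0.28 (glargine_47) to -0.09 (glargine_64) in glargine, -0.29 (Untreated_197) to -0.09 (X10_105) in X10 and -0.08 (IGF1_160) to 0.16 (IGF1_158) in IGF1 tumors.

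Over the 4 comparisons with vehicle, 0 of the 10 enzymes passed in limma at an adjusted p under 0.05. The share of all 16733 tested genes that passed was 0% in the insulin comparison, 0% with glargine, 0.0657% with X10 and 0.00598% with IGF1, so calls were rare or missing in the whole table too. At an unadjusted p under 0.05 there was 1 enzyme for insulin (Gapdh), 0 for glargine, 0 for X10 and 1 for IGF1 (Pgk1), where 11.1%, 6.23%, 11% and 8.84% of all tested genes had such a p. For insulin, 9 of 10 enzymes had a negative difference, with a median of -0.21 beside 0.026 over all genes, 54.5% of which were positive. That median was -0.13 without insulin_15 and -0.14 without Untreated_174. For IGF1, 8 of 10 had a positive one, with a median of 0.17 beside 0.015 over all genes, 53.4% of which were positive. Without IGF1_160 this became 6 of 10 with a median of 0.08, as Tpi1 and Pkm turned to -0.03 and -0.08, and Pgk1 was at 0.35 (p = 0.108). Pgk1 lost its unadjusted p under 0.05 in 12 of the 50 fits that left out 1 tumor. For insulin the count was 2, Tpi1 and Gapdh, without Untreated_182, Untreated_189 or Untreated_194. For glargine it was 2, Hk2 and Gapdh, without Untreated_189 or Untreated_194, and 1 without glargine_47 (Gapdh) or Untreated_186 (Hk2). X10 had 5 on either side of 0 and glargine 3 positive and 7 negative, where 44.4% and 54.1% of all genes were positive. These counts of signs changed with single tumors. For glargine, 0 were positive without glargine_47, Untreated_182 or Untreated_194, 1 without glargine_73, and 5 without glargine_69, Untreated_174 or Untreated_187. For X10, 3 were positive without X10_95 or Untreated_197, and 8 without Untreated_174. For insulin, 3 were positive without Untreated_161 or Untreated_174, and 2 without insulin_37 or Untreated_195. The 4 comparisons share the vehicle tumors and the enzymes varied together, so the signs are not independent of each other. Of the 40 confidence intervals, 39 lay within 1 on the log2 scale, that is a 2-fold difference in either direction, the exception being Gapdh in the insulin comparison.

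The compounds with high affinity for the IGF1 receptor were then set together, with the 20 X10 and IGF1 tumors against the 30 vehicle, insulin and glargine tumors. Here 9 of 10 enzymes were higher on average in X10 and IGF1 tumors, with a median log2 difference of 0.19, while 43.6% of all tested genes were higher and their median was -0.022. Levels of the enzymes varied together from tumor to tumor, as given below, so counts of them are not counts of 10 independent genes. Pgk1 had a difference of 0.40 (SE 0.14, 95% CI 0.12 to 0.67, p = 0.00625), Pfkl of 0.41 (SE 0.19, p = 0.033) and Aldoa of 0.28 (SE 0.13, p = 0.037). Their adjusted p in limma was 0.226, 0.414 and 0.428, so 0 of 10 enzymes passed, where 0.155% of all tested genes did, and 3 of 10 had an unadjusted p under 0.05, where 10.5% of all tested genes did. The remaining differences were 0.25 for Eno1, 0.21 for Tpi1, 0.17 for Gapdh, 0.13 for Hk2, 0.11 for Gpi1, 0.06 for Pkm and -0.02 for Hk1. Without IGF1_160 those of Gapdh, Gpi1, Pkm and Hk1 were 0.09, 0.06, -0.01 and -0.06. Hk2 was at 0.05 without X10_100, Pkm at 0.13 without X10_105 and Hk1 at 0.01 without Untreated_174. Without IGF1_160 the count of 3 became 1, with Pfkl at 0.32 (p = 0.0769), Aldoa at 0.22 (p = 0.0857) and Pgk1 at 0.35 (p = 0.0138), and 8 of 10 enzymes were higher. It was also 1, again Pgk1, without X10_95, X10_100, IGF1_124 or Untreated_194. Leaving out any 1 of the 50 tumors gave no call for any enzyme. The Pgk1 difference then lay between 0.33 without the X10 tumor X10_100 and 0.45 without the X10 tumor X10_105, with adjusted p from 0.101 to 0.362.

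**Figure D2:**
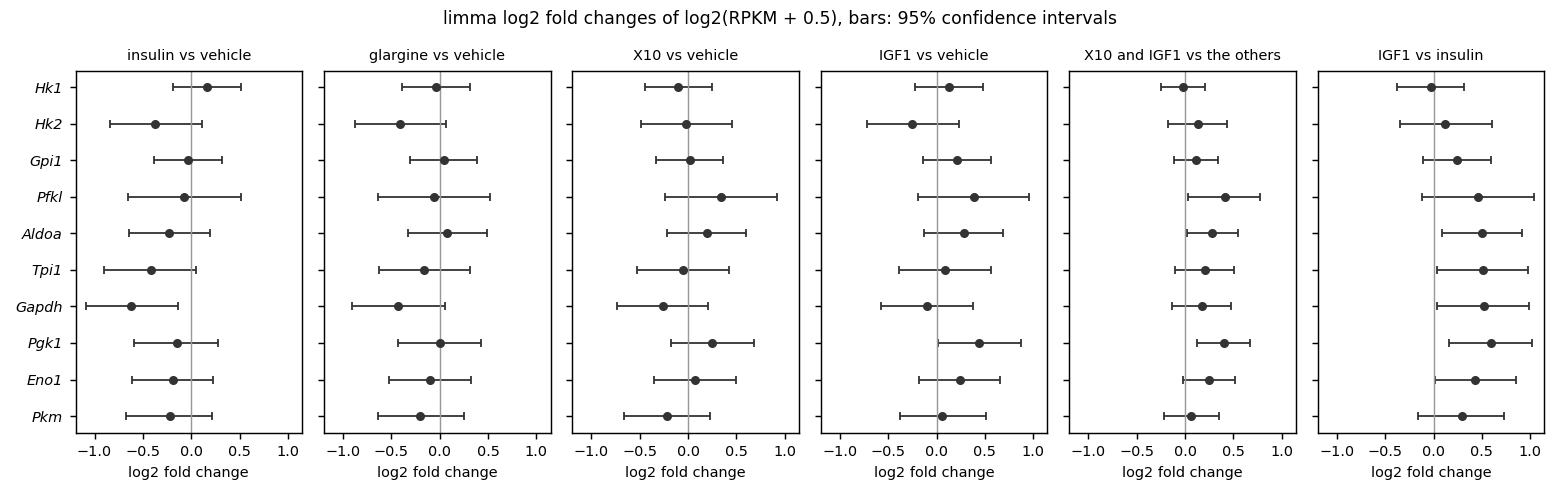
Log2 differences of the 10 enzymes from limma, with 95% confidence intervals as bars, in the 4 comparisons with vehicle, for X10 and IGF1 against the rest, and in IGF1 against insulin tumors. The intervals of Gapdh for insulin against vehicle and of Pgk1, Pfkl and Aldoa for X10 and IGF1 against the others are among those that do not hold 0, and none of the 10 enzymes passes after adjustment over 16733 genes.

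Insulin and IGF1 tumors were compared next. IGF1 tumors were higher than insulin tumors for 9 of 10 enzymes, with a median log2 difference of 0.44 beside -0.014 over all genes, and 47.4% of all tested genes were higher. Pgk1 had a difference of 0.59 (95% CI 0.16 to 1.02, p = 0.00788, adjusted p = 0.558 in limma), and Aldoa of 0.50 (p = 0.0174, adjusted p = 0.634). Tpi1, Gapdh and Eno1 also had an unadjusted p under 0.05, with differences of 0.51, 0.52 and 0.43, which makes 5 of 10 enzymes, where 7.3% of all tested genes had such a p. This count rests on few tumors, and the enzymes varied together, so the 5 are not independent of each other. Without IGF1_160 the median difference of the enzymes was 0.29, and the count was 1 (Pgk1, at 0.51 with p = 0.0228), and Aldoa was at 0.38 (p = 0.0603), Tpi1 at 0.40 (p = 0.0955), Gapdh at 0.37 (p = 0.11) and Eno1 at 0.29 (p = 0.153). It was 2 without insulin_8 or insulin_15, and 3 without insulin_37, IGF1_145 or IGF1_147. After adjustment 0 of 10 passed, and 0.00598% of all genes did. The ranges of the 2 groups overlapped for each of these 5 enzymes.

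The other pairs of groups gave 0 of 10 enzymes as well. The share of all tested genes called was 0% for glargine against insulin, 0.102% for X10 against insulin, 1.78% for X10 against glargine, 0% for IGF1 against glargine and 0% for IGF1 against X10. For X10 against insulin, Aldoa had a log2 difference of 0.42 (p = 0.0476, adjusted p = 0.433) and Pgk1 of 0.40 (p = 0.0654). No enzyme had an unadjusted p under 0.05 there in 11 of the 50 fits that left out 1 tumor. For IGF1 against glargine, all 10 differences were positive, where 50.5% of all genes were, but the enzymes are not independent of each other. The smallest p were those of Pgk1 at 0.44 (p = 0.0466, adjusted p = 0.71) and Eno1 at 0.34 (p = 0.115). The p of Pgk1 there was not under 0.05 in 12 of the 50 fits. For X10 against glargine they were those of Hk2 at 0.39 (p = 0.106) and Pfkl at 0.40 (p = 0.169), for glargine against insulin those of Aldoa at 0.30 (p = 0.143) and Hk1 at -0.20 (p = 0.255), and for IGF1 against X10 those of Hk1 at 0.23 (p = 0.197) and Pkm at 0.28 (p = 0.212). Of these, Hk2 between X10 and glargine was 0.24 without X10_100, and Eno1 between IGF1 and glargine and Pkm between IGF1 and X10 were 0.20 and 0.13 without IGF1_160. Over all 10 pairs of groups, 96 of 100 intervals lay within 1 on the log2 scale. A test for any difference among the 5 groups called 0 of 10 enzymes and 0.102% of all genes, with the smallest p for Pgk1 (F = 2.42, p = 0.0614, adjusted p = 0.407).

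Ordered by mean log2 level, IGF1 tumors came first for 7 enzymes (Gpi1, Pfkl, Aldoa, Tpi1, Pgk1, Eno1 and Pkm), vehicle tumors for Hk2 and Gapdh, and insulin tumors for Hk1. Insulin tumors came last for 8 enzymes, glargine tumors for Hk2 and X10 tumors for Hk1. None of the 40 steps between neighbours in these orders passed in limma (smallest adjusted p 0.684), nor did any highest group against the lowest (smallest adjusted p 0.346). These places rest in part on single tumors. Without IGF1_160, IGF1 tumors came first for 3 enzymes, Gpi1, Pgk1 and Eno1, while X10 tumors led for Pfkl and Aldoa and vehicle tumors for Tpi1 and Pkm. X10 tumors also led for Pfkl without IGF1_124, X10_113, X10_115 or X10_118, and vehicle tumors for Tpi1 without Untreated_189 or Untreated_194 and for Pkm without Untreated_197. Without Untreated_161 or Untreated_195, vehicle tumors came first for neither Hk2, where X10 tumors then led, nor Gapdh, where IGF1 tumors did. X10 tumors also led for Hk2 without Untreated_174, X10_107, X10_113, X10_115 or X10_118, and IGF1 tumors led for Hk1 without insulin_8, insulin_9, insulin_14, insulin_27, IFG1_132 (as titled), IGF1_135 or IGF1_145.

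The groups also differed in how widely their tumors spread. The SD of log2 values had a median over the 10 enzymes of 0.57 in vehicle tumors, 0.54 in X10, 0.49 in IGF1, 0.41 in glargine and 0.31 in insulin tumors. Vehicle tumors had the largest SD for 6 enzymes and insulin tumors the smallest for 7. For Gapdh the SD was 0.79 in vehicle and 0.23 in insulin tumors, and for Pfkl it was 0.92 and 0.31. Pgk1 and Pkm were exceptions, with their smallest SD in vehicle tumors. Pgk1 had 0.31 in vehicle and 0.63 in X10 tumors, and Pkm had 0.38 in vehicle and 0.53 in insulin tumors. These SDs are given as a description, and their differences were not tested.

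Several tumors were high in most of the enzymes at once, and they came from different groups. The summed RPKM of the 10 enzymes was highest in the IGF1 tumor IGF1_160 at 12090, which is 1.64% of all RPKM of that tumor, followed by Untreated_161 at 8139, X10_95 at 8102, Untreated_174 at 7495, X10_100 at 7485 and glargine_47 at 7101. IGF1_160 was among the 10 highest tumors for 9 of 10 enzymes, Untreated_174 for 9, X10_95 and X10_100 for 8 each, glargine_47 for 7 and Untreated_161 for 6. At the other end, glargine_69 was among the 10 lowest for 8 enzymes and Untreated_189 for 7. By group, the summed level had a median of 4310.5 in vehicle tumors (3453 to 8139), 4206 in insulin (2798 to 5693), 4299 in glargine (2867 to 7101), 4729.5 in X10 (3376 to 8102) and 5203.5 in IGF1 tumors (4050 to 12090). Tumors with 5 or more enzymes among the 10 highest numbered 4 in vehicle, 0 in insulin, 1 in glargine, 2 in X10 and 3 in IGF1, and those with 5 or more among the 10 lowest numbered 5, 3, 2, 2 and 0. Vehicle tumors were thus found among both the high and the low tumors.

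**Figure D3:**
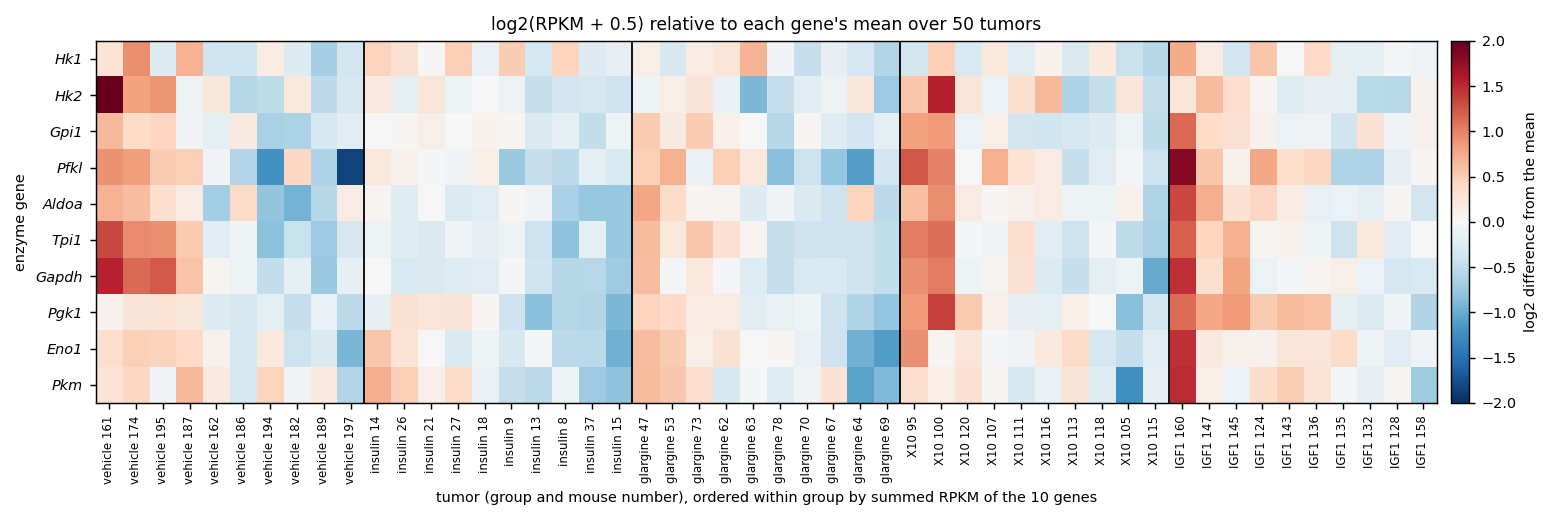
Log2 difference of each enzyme from its mean over the 50 tumors, with the 10 genes as rows and the tumors as columns by group. Columns that are high in most rows occur in the vehicle, glargine, X10 and IGF1 groups, such as Untreated_161 and Untreated_174, glargine_47, X10_95 and X10_100, and IGF1_160.

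Levels of the enzymes were positively correlated from tumor to tumor. Over the 50 tumors, the 45 pairs of enzymes had a mean Pearson r of 0.58 in log2(RPKM + 0.5), from 0.21 to 0.93, and 43 pairs had an adjusted p under 0.05, all positive. The study had drawn a glycolysis gene group by clustering these same tumors, so this covariation is a description and not independent evidence of one. Pairs among all tested genes are not given here, so the count of 43 has no background beside it. Tpi1 and Gapdh, neighbours on chromosome 6 and in the pathway, were the closest pair (r = 0.93, Spearman rho = 0.84, permutation p = 1e-05 for both, the smallest these permutations can give, adjusted p = 2.05e-05 for r and 2.37e-05 for rho). Their r was 0.91 without the 2 tumors farthest from the median and 0.94 within treatment groups. Gpi1 was close to both, with r = 0.84 for Tpi1 (rho = 0.77) and r = 0.79 for Gapdh (rho = 0.67), both with the same p and adjusted p, 0.80 and 0.72 without the 2 farthest tumors, and 0.86 and 0.84 within groups.

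The weakest pairs all held a hexokinase. Hk2 and Pkm had r = 0.21 (permutation p = 0.146, adjusted p = 0.146, rho = 0.26 with p = 0.0662, and r = 0.21 without the 2 farthest tumors and 0.20 within groups). Hk1 and Hk2, the isozymes of a single reaction, had r = 0.22 (permutation p = 0.123, adjusted p = 0.126, rho = 0.19 with p = 0.184, and r = 0.15 without the 2 farthest tumors and 0.28 within groups). Hk1 and Aldoa had r = 0.35 (permutation p = 0.0129, adjusted p = 0.0135, rho = 0.23 with adjusted p = 0.103), which was 0.21 without the 2 farthest tumors and so rests on them, and 0.42 within groups. Averaged over the 9 other enzymes, r was 0.69 for Tpi1, 0.67 for Gapdh, 0.63 for Gpi1 and Pgk1, 0.62 for Pfkl, 0.60 for Aldoa, 0.59 for Eno1, 0.49 for Hk2 and Pkm, and 0.39 for Hk1. The mean over the pairs lay between 0.53 and 0.59 when any 1 tumor was left out, the lowest without IGF1_160.

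**Figure D4:**
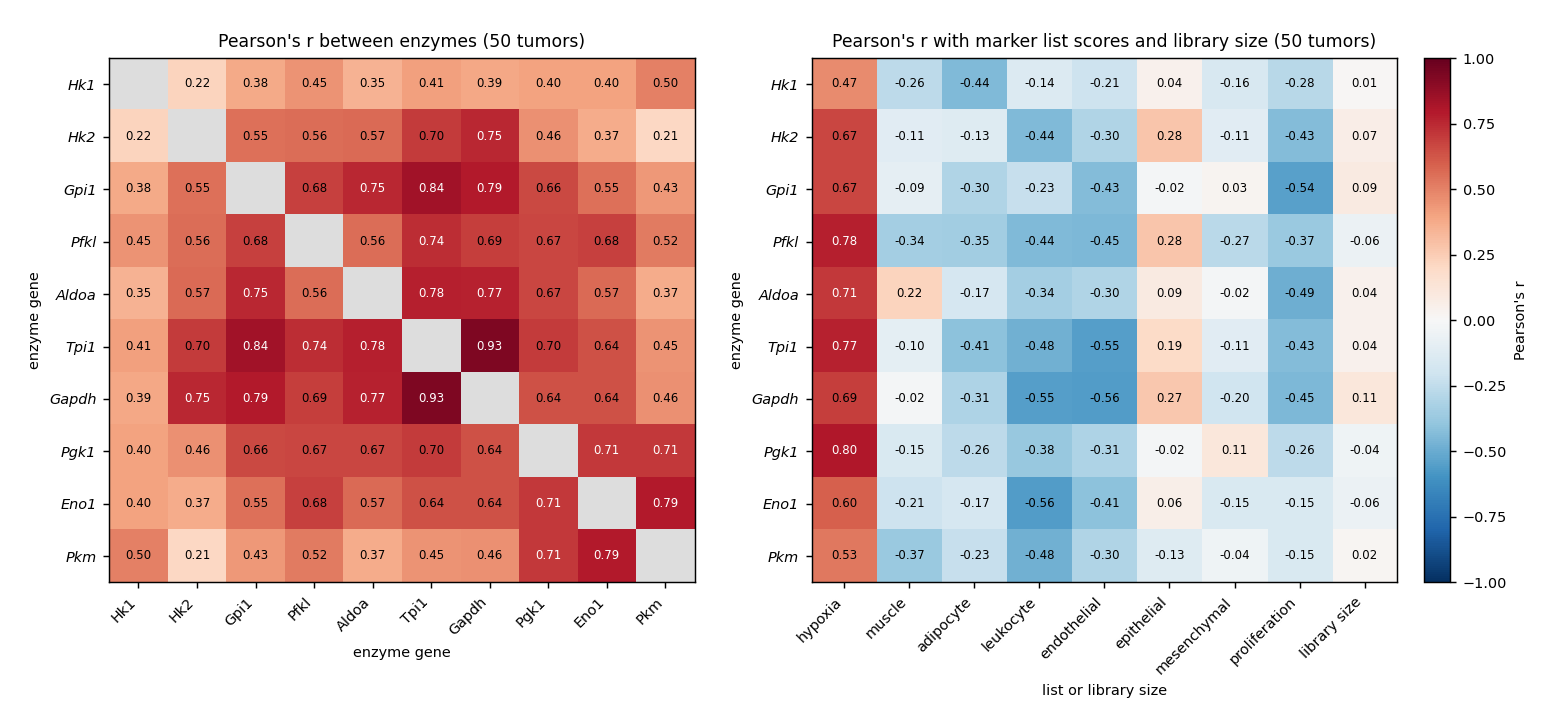
Pearson r over the 50 tumors between the log2 levels of the 10 enzymes, and between each enzyme and the mean z-score of marker gene lists or library size. Tpi1 and Gapdh form the closest pair at 0.93, and the hypoxia column is positive for all 10 enzymes, from 0.47 to 0.80.

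All 10 enzymes varied with genes that respond to low oxygen. A list of 11 such genes (Car9, Vegfa, Bnip3, Ndrg1, Egln3, Ankrd37, Adm, P4ha1, Ero1l, Kdm3a and Ddit4) was summarised as the mean z-score per tumor and set beside each enzyme, in a family of 90 relations with 8 gene lists and library size. For hypoxia, r was between 0.47 and 0.80 with a median of 0.68. Pgk1 stood highest (r = 0.80, rho = 0.78, permutation p = 1e-05 for both, adjusted p = 0.000129), with 0.75 without the 2 farthest tumors and 0.80 within groups. It was followed by Pfkl at 0.78 (rho = 0.83, with 0.79 without the 2 farthest tumors and 0.77 within groups) and Tpi1 at 0.77 (rho = 0.76, with 0.73 and 0.78), both with the same p. Hk1 stood lowest (r = 0.47, permutation p = 0.00043, adjusted p = 0.00215, rho = 0.44 with p = 0.00132 and adjusted p = 0.00849, with 0.44 without the 2 farthest tumors and 0.54 within groups). The summed RPKM of the list had medians of 676.2 in vehicle, 633.1 in insulin, 706.8 in glargine, 867.4 in X10 and 761.3 in IGF1 tumors, with ranges that overlapped. Its part in the differences between groups was not tested. The share of all tested genes that vary with this list is not given here, so the relation cannot be read as particular to the enzymes.

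Leukocyte, endothelial, proliferation and adipocyte genes were negatively related to the enzymes. For the leukocyte list of 7 genes, r was negative for all 10 enzymes, and 8 had an adjusted p under 0.05. The lowest was that of Eno1 (r = -0.56, rho = -0.53, permutation p = 4e-05 and 0.0001, adjusted p = 0.000327 and 0.0009, -0.50 without the 2 farthest tumors and -0.59 within groups). For the endothelial list of 5 genes all 10 were negative and 5 passed, the lowest being Gapdh (r = -0.56, rho = -0.51, permutation p = 4e-05 and 0.00017, adjusted p = 0.000327 and 0.00139, -0.53 without the 2 farthest tumors and -0.55 within groups). For the proliferation list of 6 genes all were again negative and 6 passed, the lowest being Gpi1 (r = -0.54, rho = -0.44, permutation p = 6e-05 and 0.00176, adjusted p = 0.000386 and 0.0099, -0.58 within groups), which was -0.35 without the 2 farthest tumors. Without those 2 tumors, r was -0.34 for Hk2, -0.30 for Aldoa, -0.27 for Gapdh and -0.26 for Tpi1. It was -0.18 for Pfkl, -0.13 for Hk1, 0.01 for Pgk1 and 0.06 for Eno1 and Pkm. The negative relation with proliferation thus rests in part on 2 tumors. The adipocyte list gave 3 relations that passed, all negative, and the muscle list 2, those of Pkm at -0.37 and Pfkl at -0.34, neither of which passed by rank (adjusted p = 0.122 and 0.356). By rank the muscle list had 1 other relation that passed, the positive one of Aldoa (rho = 0.35, permutation p = 0.0146, adjusted p = 0.0453, with r = 0.22 and adjusted p = 0.207). Epithelial and mesenchymal lists gave 0, and r with the epithelial list was positive for 7 of 10 enzymes. By rank, 7 relations passed for leukocytes, 5 for endothelial cells, 3 for adipocytes and 3 for proliferation, where Pfkl, Tpi1 and Gapdh no longer did (adjusted p = 0.141, 0.148 and 0.238). Over all 90 relations, 34 passed by r, and 20 did without IGF1_160, Untreated_161 and X10_95, the 3 tumors with the highest summed enzymes. The summed leukocyte RPKM had group medians of 207.5 in vehicle, 304.4 in insulin, 296.5 in glargine, 254.3 in X10 and 292.0 in IGF1 tumors, and the adipocyte sum had its highest group median in glargine tumors (20.8 to 511.0), beside medians of 43.3 to 72.4 in the other groups. What part these transcripts have in the enzyme levels was not tested. The share of all tested genes related to each list is not given here, so these counts cannot be read as particular to the enzymes.

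The promoters of the 10 genes are shown because the enzymes move together with the hypoxia list. RefSeq starts gave 16 promoters for the 10 genes (GRCm38.p6, 250 bases before to 50 after the start), which were searched on both strands for the forms of the core that hypoxia-inducible factors bind. The first was ACGTG, which reads CACGT on the opposite strand, and the second was GCGTG, which reads CACGC there. A palindromic CACGTG counts on both strands. ACGTG was found in 6 of the 10 genes, Hk1, Hk2, Aldoa, Gapdh, Pgk1 and Pkm, and in 21.8% of all 27025 genes searched in this way. GCGTG was found in 4, Hk1, Pfkl, Gapdh and Eno1, and in 35.2% of all genes. One or the other was present in 8 of 10 genes and in 46.7% of all genes, and in 11 of the 16 promoters and 43.8% of all 32851 promoters. The GC box GGGCGG, on the opposite strand CCGCCC, which can share at most 1 end base with a core, was in 8 of 10 genes and 38.2% of all. The TATA box TATAAA, on the opposite strand TTTATA, was in 0 of 10 and in 15.7% of all. A match is a string of letters and not a site shown to be bound. Windows of 250 bases upstream of the start follow, with matches to either core in capitals. They are those of Pgk1, which was highest beside the hypoxia list (chrX:106186850-106187099, plus strand), of Hk2 and Eno1, the enzymes of lowest and highest level (chr6:82774455-82774704, minus strand, and chr4:150236458-150236707, plus strand), and of Gpi1, which holds neither core (chr7:34230337-34230586, minus strand).
Pgk1: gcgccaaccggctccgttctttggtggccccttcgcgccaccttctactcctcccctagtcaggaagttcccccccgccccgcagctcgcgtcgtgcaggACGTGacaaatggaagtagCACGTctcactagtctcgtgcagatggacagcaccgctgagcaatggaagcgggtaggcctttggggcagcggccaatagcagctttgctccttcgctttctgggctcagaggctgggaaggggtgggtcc
Hk2: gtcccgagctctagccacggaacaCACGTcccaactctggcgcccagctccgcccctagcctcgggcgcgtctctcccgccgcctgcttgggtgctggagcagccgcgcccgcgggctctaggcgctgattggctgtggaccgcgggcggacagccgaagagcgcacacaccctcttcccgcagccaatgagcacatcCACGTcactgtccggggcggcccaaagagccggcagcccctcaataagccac
Eno1: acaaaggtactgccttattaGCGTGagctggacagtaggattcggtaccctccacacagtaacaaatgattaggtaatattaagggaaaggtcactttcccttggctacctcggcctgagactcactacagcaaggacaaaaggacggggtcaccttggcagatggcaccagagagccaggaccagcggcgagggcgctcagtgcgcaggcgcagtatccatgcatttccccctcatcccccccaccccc
Gpi1: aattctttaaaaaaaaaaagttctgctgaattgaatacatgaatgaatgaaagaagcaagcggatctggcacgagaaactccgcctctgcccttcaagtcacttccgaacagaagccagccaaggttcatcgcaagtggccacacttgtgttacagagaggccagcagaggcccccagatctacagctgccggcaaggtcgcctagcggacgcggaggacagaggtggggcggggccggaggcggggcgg
Pgk1 and Hk2 each show 2 matches in these windows, Eno1 shows 1 and Gpi1 shows 0. The Eno1 window is the first by position of 3, and the other 2 (chr4:150236947-150237196 and chr4:150236974-150237223) overlap and hold 2 matches each. Over the full promoters, with the bases after the start, those 2 hold 3 GC boxes each and the first holds 0. The r with the hypoxia list was 0.80 for Pgk1, 0.67 for Hk2, 0.60 for Eno1 and 0.67 for Gpi1.

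The gene outside the 10 whose level was most like that of each enzyme was searched over all tested genes, as Pearson r over the 50 tumors, and is given without a test because it was picked for that r. For Aldoa it was Gys1, muscle glycogen synthase (r = 0.83, rho = 0.81), and for Hk2 it was Ppp1r3b, a subunit that targets a phosphatase to glycogen (r = 0.75, rho = 0.71, at a mean RPKM of only 2.77). For Pkm it was Slc16a3, the lactate exporter MCT4 (r = 0.74, rho = 0.68). Pfkl was closest to Mif, a cytokine gene (r = 0.81, rho = 0.80), Gpi1 to Prelid2 (r = 0.81, rho = 0.73) and Hk1 to Aifm2, which encodes a ferroptosis suppressor (r = 0.72, rho = 0.69) and lies 0.53 Mb from Hk1. For the other 4 the closest row was a copy of a member. It was Gm5537 for Pgk1 (r = 0.83), Eno1b for Eno1 (r = 0.86), and Gm13394, a pseudogene of Gapdh, for both Gapdh (r = 0.88) and Tpi1 (r = 0.83).

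The counting could split reads between an enzyme and such copies or leave such reads out, so the values of both are uncertain. The shares below cover only reads that were counted in a copy. Copies were counted when at least 200 aligned bases at 90% identity or more covered at least 50% of the exons of the copy. Gapdh had 74 of them in the table, 73 annotated as pseudogenes, and they took a median of 20.6% of the combined reads (12.8 to 28.4%). Pgk1 had 2, Gm5537 and Pgk1-rs7 (mean RPKM 38.3 and 37.2), with a median of 22.7% (13.5 to 28.7%). Eno1 had Eno1b and Gm4735 with 6.13%, Gpi1 had 1 copy with 3.64%, Aldoa 2 with 1.2% and Pkm 3 with 0.131%, and none was found for Hk1, Hk2, Pfkl and Tpi1. The share was not the same in all groups. For Gapdh the median was 20.45% in vehicle, 21.25% in insulin, 24.0% in glargine (21.8 to 26.4%), 18.75% in X10 (15.0 to 20.6%) and 19.95% in IGF1 tumors, so glargine and X10 tumors did not overlap. The medians for Pgk1 were 23.2%, 22.3%, 24.9%, 18.0% and 22.5%. With the reads of the copies added back, the Pgk1 difference between X10 and IGF1 tumors and the others was 0.34 in place of 0.40 (adjusted p = 0.338), and the Gapdh difference between insulin and vehicle tumors was -0.57 in place of -0.62 (adjusted p = 0.369).

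**Figure D5:**
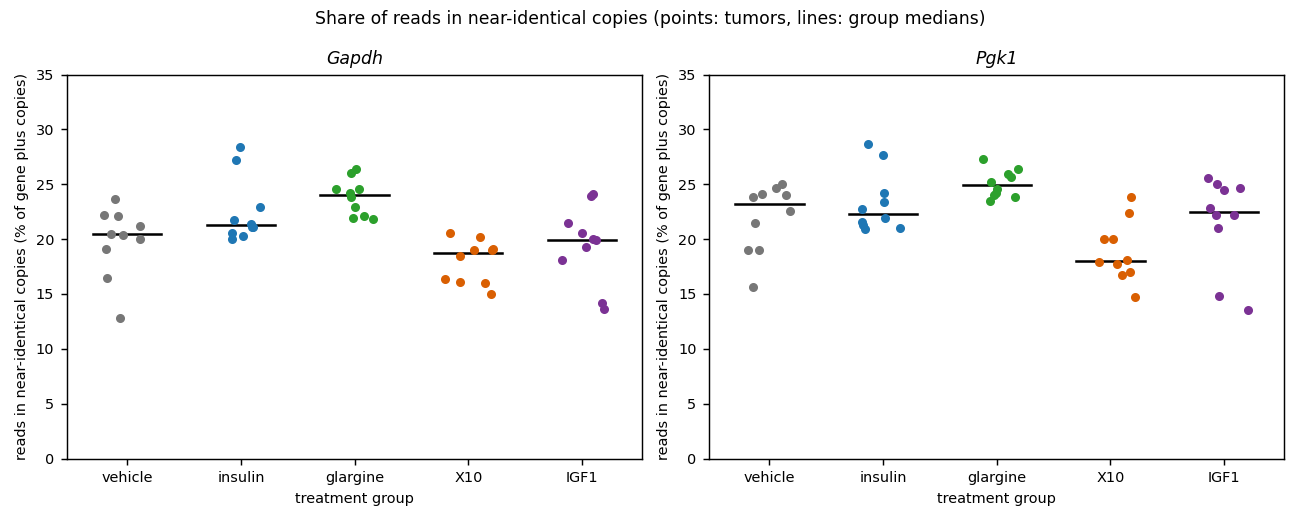
Share of combined reads that lie in near-identical copies, in percent, for Gapdh and Pgk1, with 1 point per tumor and 10 tumors per group. X10 tumors are lowest and glargine tumors highest by median in both genes, and for Gapdh the 2 groups do not overlap.

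Other genes of the pathway were tested in the same fit. A list of 40 names covered other isozymes, glucose and lactate transporters, the Pfkfb regulators of phosphofructokinase, pyruvate dehydrogenase kinases and enzymes of the reverse pathway, and 30 of them were tested. None was called in any comparison, and the same percentages of all genes as above apply. For X10 and IGF1 against the rest, 5 of 30 had an unadjusted p under 0.05, and the median of the 30 log2 differences was 0.01. They were Ldha at 0.31 (p = 0.0158, adjusted p = 0.326), Slc16a3 at 0.71 (p = 0.0236, adjusted p = 0.367), Pdk1 at 0.38 and Pdk3 at 0.20, which inhibit pyruvate dehydrogenase, and Bpgm at -0.33, which makes 2,3-bisphosphoglycerate. Against vehicle, Pdk1 was at 0.68 in X10 (p = 0.0136, adjusted p = 0.335), Pfkfb2 at -0.48 in IGF1 (p = 0.00887, adjusted p = 0.394), and Aldoc and Pdk2 at 0.71 and 0.48 in glargine, while insulin had 0. Slc2a1, the main glucose transporter of tumors, had a log2 difference of 0.44 (95% CI -0.07 to 0.96) between X10 and IGF1 tumors and the others.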

How the data were processed

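RNA of 50 MG tumors had been Poly-A selected and sequenced on the Ion Proton by the authors, who aligned the reads to GRCm38 with Tophat2 (2.0.10) and Bowtie2, counted them with HTSeq (0.6.1) and, for differential expression, used DESeq2 (1.2.10), which was not repeated here. The deposited RPKM values are read counts normalised by the authors to library size and gene length, and the study names DEXSeq for its RPKM table. Whether strand was used for them is not given in the sources used here, so antisense reads cannot be told apart. Groups come from the sample titles, with Untreated taken as vehicle and IFG1 as IGF1. The sequence sample ids in the labels run in group order, so an effect of that order and of group cannot be told apart.

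Genes with mean RPKM of at least 0.5 were tested with limma 3.58.1 (R 4.3.3, intensity trend) on log2(RPKM + 0.5), all 5 groups in 1 fit, with Benjamini-Hochberg adjustment over all tested genes and calls at adjusted p under 0.05. Fold changes are on this scale and understate the change of low genes. Library size was read from the spacing of low values of 8497 genes, of which at least 92.5% per tumor fell on whole reads. Correlations and the hexokinase ratio used two-sided permutation tests with 100000 resamples (Python 3.11.15, numpy 2.4.6, scipy 1.17.1, pandas 2.3.3). Copies were found with BLAST+ 2.17.0 against GENCODE M21, and promoters came from RefSeq. Figures were drawn with matplotlib 3.10.9. The fit was tested on simulated data.

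The members, gene lists and tests were chosen with earlier results of these data known. Named are all 10 enzymes in the 5 main comparisons, the 2 with the smallest p in the other pairs, the 3 highest and 3 lowest correlated pairs, the most similar gene to each, and pathway genes at p under 0.05 in the main comparisons. Alternatives were pseudocounts of 0.1 and 1, other filters, quantile and upper quartile scaling, no trend, only the compared groups, library size or muscle and adipocyte scores as covariates, leaving out the 13 muscle-rich tumors, summed Eno1 and Eno1b, and rank correlation. Adding the reads of copies, leaving out the 3 tumors with the highest summed enzymes, and leaving out each tumor were chosen after seeing the data. Duplicate libraries were not found: the closest pair of tumors had r = 0.982.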

Additional observations from a re-analysis of the deposited data

Results flagged for a closer look

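In 9 of the 50 sets of 10 tumors, 1 per enzyme and group, the highest tumor stood apart from the rest of its group by Dixon's test on RPKM. The rule flags about 1 in 20 groups by chance only where values are normally distributed. RPKM was not put on the log2 scale for it, so 9 of 50 cannot be set against that rate. The IGF1 tumor IGF1_160 accounts for 6 of the 9. It had 426.1 RPKM of Gpi1, where the next IGF1 tumor had 250.7, and 677.1 of Pfkl, where the next had 324.9. It had 1966 of Aldoa (next 1288), 1653 of Gapdh (next 1037), 3896 of Eno1 (next 1828) and 1388 of Pkm (next 690.6). In X10 tumors, Eno1 in X10_95 was at 2658 (next 1834) and Hk2 in X10_100 at 88.5 (next 46.9). In vehicle tumors, Hk2 in Untreated_161 was at 119.7 (next 55.5). Since the enzymes vary together, the flags of a single tumor are not independent of each other. No insulin or glargine tumor was flagged.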

How the results depend on the processing

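No enzyme was called in any comparison under any of the 166 settings run, and over 802 settings of single genes, which do not include leaving out single tumors, the smallest adjusted p was 0.211. In 21 of these 802 settings a difference changed sign, all uncalled and at most 0.17 in size. Leaving out each tumor gave adjusted p down to 0.101, for Pgk1 between X10 and IGF1 tumors and the rest, and changed signs up to 0.18 in size, for Hk2 between X10 and vehicle tumors without Untreated_161. Of the 21, without the 3 tumors with the highest summed enzymes (IGF1_160, Untreated_161 and X10_95) the log2 difference from vehicle became 0.05 for Gpi1 and 0.04 for Pfkl in insulin, 0.05 for Pfkl in glargine, 0.14 for Hk2 in X10 and -0.06 for Pkm in IGF1 tumors, and -0.03 for Pkm between X10 and IGF1 tumors and the rest. With muscle and adipocyte scores as covariates it became 0.08 for Hk1, 0.12 for Pfkl and 0.02 for Tpi1 in glargine and -0.01 for Tpi1 in IGF1 tumors. Without the muscle-rich tumors it became -0.08 for Aldoa and -0.17 for Pgk1 in glargine, -0.05 for Eno1 in X10 and -0.02 for Pkm in IGF1 tumors. With library size as a covariate it became -0.02 for Pgk1 in glargine and 0.02 for Hk2 and 0.00 for Eno1 in X10 tumors. Quantile normalization gave 0.05 for Gpi1 in insulin and 0.05 for Hk2 in X10 tumors, and upper quartile scaling 0.04 for Hk2 and 0.01 for Tpi1 in X10 tumors. The Hk2 to Hk1 ratio kept an adjusted p of at least 0.318 over 15 settings. Mean r between enzymes lay between 0.51 and 0.61. The relations of enzymes with lists that passed fell from 34 to 20 of 90 without the 3 tumors named above, and the cause was not tested. Calls over all genes moved between 1 and 46 for X10 against vehicle, 11 and 159 for X10 and IGF1 against the others, 6 and 31 for X10 against insulin, 52 and 531 for X10 against glargine, and 0 and 22 for any difference. No paired analysis was possible because the groups share no mouse numbers.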

Other observations

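Many of the genes whose levels were most like those of an enzyme lay on the same chromosome as that enzyme. This was looked at after the correlations had been seen, over the 20 genes with the highest r to each enzyme out of 16478, copies left out. For Pkm, 12 of the 20 were on chromosome 9, which holds 5.29% of all genes compared, among them Clk3 (r = 0.73, 1.89 Mb away), Cdkn2d (r = 0.73), Higd1a (r = 0.70) and Anxa2 (r = 0.69, 9.77 Mb away). For Tpi1 it was 6 (5.5% of all genes), including Hilpda, a lipid droplet gene (r = 0.77), and Eno2, which lies 0.0409 Mb from Tpi1 (r = 0.73). For Aldoa it was 6 (6.99%), with Gys1, Ldha, Bnip3 and Adm among them. Hk1 and Gpi1 had 5 each (4.37 and 6.99%), Hk2, Gapdh and Eno1 had 4 each (5.5, 5.5 and 6.91%), Pfkl had 3 (4.37%) and Pgk1 had 1 (4.63%). The 3 of Pfkl, which were Mif, Bsg and Pias4, all lay within 5 Mb of it, where 1.1% of all genes lie. For the other enzymes 0.394 to 0.837% of all genes lie so near. There the count within 5 Mb was 2 for Hk1, 1 each for Hk2, Tpi1, Eno1 and Pkm, and 0 for Gpi1, Aldoa, Gapdh and Pgk1.

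Without the 3 tumors with the highest summed enzymes the count was 10 for Pkm, 8 for Gpi1, 7 for Hk1 and Eno1, 5 for Tpi1, 4 for Hk2, Aldoa and Gapdh, 3 for Pfkl and 1 for Pgk1. The median level of all genes on the enzyme's own chromosome had r between -0.20 and 0.26 with the enzyme, and no adjusted p under 0.474 over the 10 permutation tests. Ranked among the 20 chromosomes by this r, the own chromosome was first for 4 enzymes, Hk2, Gpi1, Eno1 and Pkm, and within the first 4 for 9 of 10. Without the 3 tumors with the highest summed enzymes, r was up to 0.36, for Gpi1 and Pkm. By rank, Gpi1 had rho = 0.39 with the median of chromosome 7 (permutation p = 0.00473, adjusted p = 0.0473). Copy number of these tumors was not analysed here, and whether it has a part in this pattern was not tested.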
